A study of Mus musculus with 2 samples.

Results

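The 10 genes described here encode the 2 cytoplasmic actins (Actb, Actg1), the 2 beta-thymosins (Tmsb4x, Tmsb10) and 6 proteins that act on actin (Pfn1, Cfl1, Arpc2, Arpc3, Tpm3, Myl6). They were taken by symbol from 43346 genes in the deposited tables, and all 10 were found. The tissue was the liver of newborn B6NCrl mice at postnatal age 0 days, with no treatment or allele given in the labels. The 2 libraries belong to 1 group, from single livers of pup 1 (replicate 1) and pup 3 (replicate 2), and the labels give both the same donor entry. Each library used a SmartSeq protocol on 13 pg of liver RNA (size over 200 nt), stated as 1 cell-equivalent but drawn from tissue RNA, so values are averages over liver cells. Pup 1 was the deeper library, at 56959836 expected counts (estimated reads) against 35973980. No contrast is set between the samples, so levels are given as mean ± SD (n = 2) and the difference between the pups as a ratio, with no test, and this spread holds animal and technical differences together.

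Actin monomers (G-actin) assemble into filaments (F-actin) that give a cell its shape, carry its movement and hold its contacts. Beta-thymosins hold monomers in reserve, profilin hands monomers to growing filament ends, cofilin severs old filaments, and the Arp2/3 complex starts new branches on existing ones. Tropomyosins coat filaments and decide which partners reach them, and nonmuscle myosin II pulls on them. In hepatocytes filaments are dense around the bile canaliculus, and in developing red cells they form short struts of the membrane skeleton. Platelets and white blood cells are known for abundant beta-thymosin.

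The set holds 2 pairs of close relatives, whose sequences are shown because reads must be told apart to count each gene. The coding sequences of the 2 thymosins, without the stop codon, each have 132 bases. That of Tmsb4x (transcript Tmsb4x-201) lies in 2 exons at chrX:167207937-167208036 and chrX:167207504-167207535. That of Tmsb10 (Tmsb10-203) lies at chr6:72957913-72958012 and chr6:72957621-72957652, both on the minus strand of GRCm38. They are printed 5′ to 3′ with the bases that differ between them in capitals:
Tmsb4x: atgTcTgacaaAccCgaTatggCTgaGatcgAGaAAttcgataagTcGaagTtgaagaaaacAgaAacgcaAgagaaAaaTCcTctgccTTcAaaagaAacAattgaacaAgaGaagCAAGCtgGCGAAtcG
Tmsb10: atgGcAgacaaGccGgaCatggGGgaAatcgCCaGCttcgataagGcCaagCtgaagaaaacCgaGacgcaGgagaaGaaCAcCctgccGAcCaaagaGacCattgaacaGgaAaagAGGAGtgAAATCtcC

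They differed at 40 of 132 bases (69.7% identity). The longest run shared by the 2 whole transcripts was 10 bases.

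The actins are far closer. Over the 1125 coding bases Actb-201 and Actg1-202 differed at 128 (88.6% identity), and 120 of these differences fell on the third base of a codon. The first 60 coding bases hold 9 of them, in capitals below. They lie within the first coding exon of each gene, chr5:142905564-142905686 for Actb and chr11:120347969-120348091 for Actg1, both on the minus strand:
Actb: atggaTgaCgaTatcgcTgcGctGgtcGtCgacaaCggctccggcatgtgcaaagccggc
Actg1: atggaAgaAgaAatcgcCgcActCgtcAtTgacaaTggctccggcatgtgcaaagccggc

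The longest stretch identical in both actin transcripts was 62 bases, and 795 bases of Actb-201 and 827 of Actg1-202 are noncoding. Reads that lie wholly in a shared stretch were divided by estimation when the tables were made.

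Actb (ENSMUSG00000029580.10, GRCm38 chr5:142903115-142906754) was the most abundant member by mean, at 2270 TPM in pup 1 against 1677 in pup 3. TPM is a transcript level corrected for length, here rescaled to a sum of 1000000 after removal of spike-in RNAs. Its mean was 1973 ± 419 TPM, and it ranked 53 among all genes in pup 1 and 70 in pup 3. Actg1 (ENSMUSG00000062825.11, chr11:120345690-120348542) was at 479 TPM in pup 1 against 322 in pup 3, with a mean of 401 ± 111 TPM. Both actins were lower in pup 3. In bulk RNA fewer cells of a type and less RNA per cell cannot be told apart. Actb exceeded Actg1 by 4.74 times in pup 1 and by 5.20 times in pup 3, a mean of 4.97 ± 0.327. Such a ratio within a library does not move with the scaling of whole libraries.

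The actins of muscle were low or at 0. Acta2, the smooth muscle actin also made by activated stellate cells, was at 33.5 TPM (2352 expected counts) in pup 1 but had a count of 0 in pup 3. Acta1 of skeletal muscle had 3 and 0 expected counts, and Actc1 (cardiac) and Actg2 (enteric) had 0 in both. A count of 0 allows up to 0.0547 counts in 1000000 endogenous counts in pup 1 and 0.0862 in pup 3 (3 counts per library). This limit covers read depth only, and RNA missed when a library was made from 13 pg is not covered by it. A count of 0 in a library therefore does not show that the RNA was absent from that liver. None of the 5 skeletal muscle markers reached 1 TPM. All 8 hepatocyte markers were at 1 TPM or more in both.

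**Figure D1:**
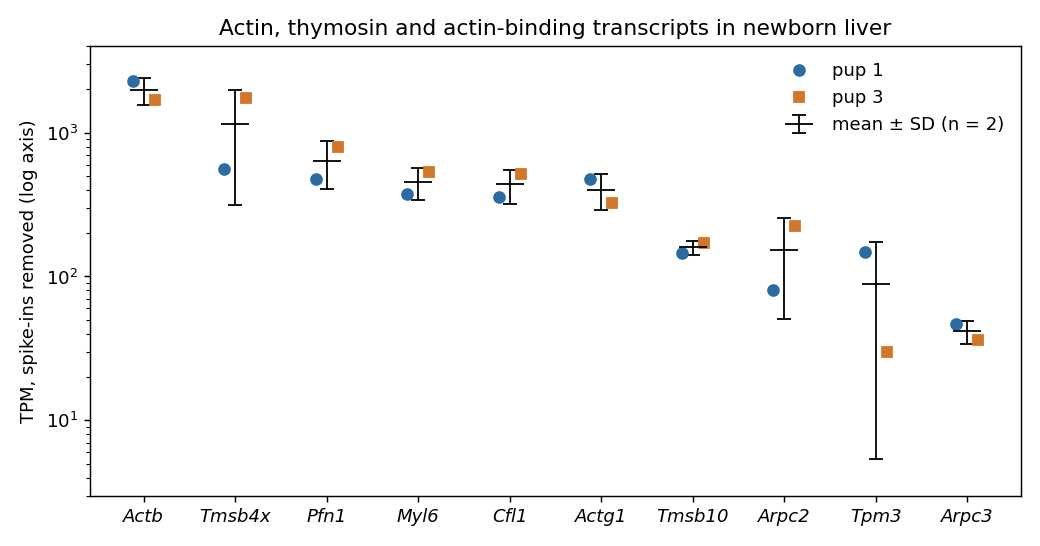
TPM of the 10 members (vertical axis, log scale) in pup 1 (circles) and pup 3 (squares), with mean ± SD (n = 2) in black, ordered by mean. Tmsb4x, Arpc2 and Tpm3 have the widest gaps between the symbols, and Tmsb10 has the narrowest.

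Tmsb4x (ENSMUSG00000049775.12, chrX:167207093-167209315), a main sequesterer of actin monomers, was at 555 TPM in pup 1 against 1727 in pup 3. It stood at 1141 ± 828 TPM, rank 202 in pup 1 and rank 63 in pup 3, where it was slightly above Actb. Its relative Tmsb10 (ENSMUSG00000079523.4, chr6:72957347-72958748) was at similar levels of 146 and 172 TPM (159 ± 18.4 TPM). The ratio of Tmsb4x to Tmsb10 was therefore 3.80 in pup 1 and 10.03 in pup 3. Of the other thymosin genes, Tmsb15b1 was at 25.4 TPM in pup 1 and at 0 in pup 3. Tmsb15l had 14 and 0 expected counts, and Tmsb15a had 0 in both.

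Profilin 1 (Pfn1, ENSMUSG00000018293.4, chr11:70651850-70654644) was at 474 TPM in pup 1 against 800 in pup 3, with a mean of 637 ± 231 TPM. Like Tmsb4x it was higher in the library in which both actins were lower, and so were Tmsb10, Cfl1, Myl6 and Arpc2, but not Arpc3 and Tpm3. Per Actb transcript there were 0.209 of Pfn1 in pup 1 and 0.477 in pup 3, and 0.245 and 1.03 of Tmsb4x. For Cfl1, which severs filaments, the values were 0.156 and 0.309, so a higher ratio to Actb in pup 3 was not particular to monomer binders. The summed level of these 3 monomer-binding members (Tmsb4x, Tmsb10, Pfn1) was 0.427 of the summed actin level in pup 1 and 1.35 in pup 3. This grouping was chosen after values were seen. Of the 3, Tmsb4x differed most (555 and 1727 TPM) and Tmsb10 least (146 and 172 TPM). The log2 ratios of pup 3 over pup 1 for Actb (-0.44) and Actg1 (-0.57) lay within the range of 12 spike-in RNAs at 100 TPM or more (-0.94 to 0.44).

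Of the 9 other monomer-binding and recycling genes 1 was at 1 TPM or more in both libraries, 2 in one and 6 in neither. Among all 43346 genes 3555 reached 1 TPM in both, which is 46.3% of those that did so in either. This share is also the background for the lists below. It leaves out genes that reached 1 TPM in neither library, so it compares only with the genes of a list that reached it in at least 1. Twinfilin (Twf1) stood at 46.5 ± 3.93 TPM. Cap1, which recycles monomers together with cofilin, was at 0.396 and 22.04 TPM. Pfn2 had 5 and 0 expected counts and Pfn3 had none, so nearly all counts of these 3 profilin genes were of Pfn1.

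Cofilin 1 (Cfl1, ENSMUSG00000056201.6, chr19:5490455-5495201) was at 354 TPM in pup 1 against 519 in pup 3 (437 ± 116 TPM). Its muscle relative Cfl2 had 2 and 0 expected counts. The related depolymerizing factor Dstn was steadier at 208 ± 8.14 TPM. The ratio of profilin to cofilin was 1.34 in pup 1 and 1.54 in pup 3 (1.44 ± 0.145).

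Of the 14 genes of filament severing and capping, 8 were at 1 TPM or more in both libraries, 3 in one and 3 in neither. The subunits of capping protein, which closes filament ends, differed in opposite directions. Capzb, the beta subunit, was at 207 TPM in pup 1 against 79.7 in pup 3. The alpha subunits Capza1 (48.3 and 104 TPM) and Capza2 (65.9 and 135 TPM) were higher in pup 3. Coro1a, a coronin of blood cells, stood at 109 ± 12.5 TPM. Coro1b, Gsn and Capg had no counts in pup 1 and 6975, 4061 and 1733 expected counts in pup 3.

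Arpc2 (ENSMUSG00000006304.10, chr1:74236084-74268209) and Arpc3 (ENSMUSG00000029465.10, chr5:122391878-122414184) encode 2 subunits of the Arp2/3 complex. Arpc2, which forms its structural core with Arpc4, was at 80.5 TPM in pup 1 against 224 in pup 3 (152 ± 101 TPM). Arpc3 was at 46.9 and 36.2 TPM (41.5 ± 7.52 TPM). The ratio of Arpc2 to Arpc3 transcripts was 1.72 in pup 1 and 6.17 in pup 3.

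Across all 9 genes of the complex the order of subunits differed between the libraries. In pup 1 Arpc4 led at 188 TPM and the median gene had 50.4 TPM. In pup 3 Arpc2 led and the median was 39.9 TPM. Actr3, which encodes Arp3, had 1 expected count in pup 1 and was at 40.4 TPM in pup 3, and Arpc5l was at 0 and 37.1 TPM. Actr2, which encodes Arp2, was at 50.4 and 17.6 TPM. The summed level was nearly the same, at 592 TPM in pup 1 and 606 TPM in pup 3, while 3 genes were over 2-fold higher and 2 over 2-fold lower in pup 3. Across all 8120 genes whose counts averaged 10 or more, 67.6% were over 2-fold apart (33.1% higher and 34.5% lower in pup 3), so a count of 5 of 9 is no result about the complex. Of 11 genes for nucleation promoting factors and formins, 1 was at 1 TPM or more in both libraries, 2 in only 1 and 8 in neither. The gene in both was Wasf2, an activator of the complex, at 33.1 and 32.6 TPM (32.9 ± 0.318 TPM). Its expected counts were 3719 and 814, further apart than the endogenous totals of the libraries (54817565 and 34792898). The small SD in TPM therefore rests on the length correction and does not show steady counts.

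**Figure D2:**
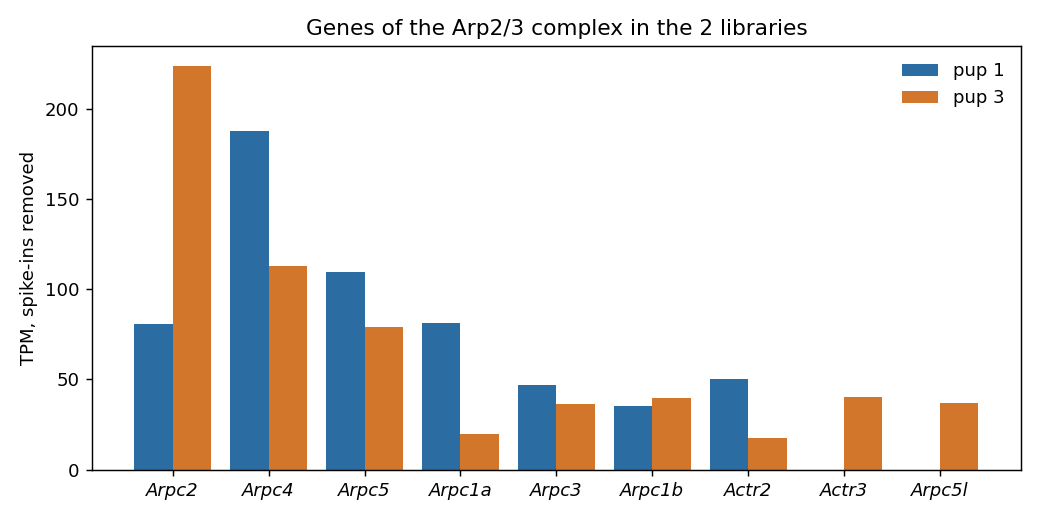
TPM of the 9 genes of the Arp2/3 complex (vertical axis, from 0) in pup 1 and pup 3, ordered by mean, 1 library per bar. Arpc2 has the tallest bar, in pup 3, whereas Actr3 and Arpc5l have visible bars in pup 3 only.

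Tpm3 (ENSMUSG00000027940.14, chr3:90072649-90100902), a tropomyosin, differed most among the members, by 4.96 times. It was at 148 TPM in pup 1 against 29.8 in pup 3 (88.9 ± 83.6 TPM), or 11431 and 1645 expected counts. The other 3 tropomyosin genes were at 1 TPM or more in both libraries and stayed within 2-fold. Tpm1 was at 66.7 and 96.0 TPM, Tpm4 38.5 and 24.3 TPM, and Tpm2 31.7 and 23.6 TPM. Tpm3 was thus the leading tropomyosin in pup 1, and Tpm1 in pup 3.

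Myl6 (ENSMUSG00000090841.1, chr10:128490860-128494145), the essential light chain of nonmuscle and smooth muscle myosin II, was at 374 TPM in pup 1 against 536 in pup 3 (455 ± 115 TPM). It exceeded every other gene of the myosin II list. The regulatory light chains followed, with Myl12a at 15.5 and 210 TPM and Myl12b at 56.5 and 88.6 TPM. Among the heavy chains Myh9 stood at 27.5 ± 1.99 TPM, and Myh10 had 5 expected counts in pup 1 but 67.8 TPM in pup 3. Myl9, a regulatory light chain abundant in smooth muscle, was at 49.3 TPM in pup 1 with 1 expected count in pup 3. Of these 8 genes 3 were at 1 TPM or more in both libraries, 2 in one and 3 in neither.

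Of 11 genes for filament bundling and membrane linkers, 5 were at 1 TPM or more in both libraries, 4 in only 1 and 2 in neither. Among the 10 whose counts averaged 10 or more, 7 were over 2-fold higher and 2 over 2-fold lower in pup 3, beside 33.1% and 34.5% of all genes with such counts. The linker Rdx was at 14.8 and 110 TPM, Lcp1 27.6 and 93.5 TPM, and the filamin Flna 0 and 85.5 TPM. The 2 lower genes were the linkers Ezr, at 56.6 and 0.0636 TPM, and Msn, at 41.8 and 20.1 TPM. The transcription factor Srf, which acts on actin genes, was counted 0 times in pup 1 and 2041 times in pup 3. Its cofactor Mrtfb had 1 and 1977 expected counts, and Mrtfa had none.

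The order of the members by mean was Actb, Tmsb4x, Pfn1, Myl6, Cfl1, Actg1, Tmsb10, Arpc2, Tpm3 and Arpc3. Of the 9 pairs of neighbours in this order 1 was separated, since both values of Actg1 lay above both of Tmsb10. In the other 8 pairs the values of the 2 libraries overlapped. All 10 members reached 1 TPM in both libraries. Among all genes with at least 1 TPM in either library 46.3% did so, and among the 2346 genes with a mean at or above that of Arpc3, the lowest member, 90% did.

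Summed, the members held 0.493% of endogenous TPM in pup 1 and 0.604% in pup 3 (0.548 ± 0.0789%). Without Tmsb4x the shares were 0.437 and 0.432%, and without Actb 0.266 and 0.437%. The composition shifted as well. Actb made up 46.1% of the members' sum in pup 1 and 27.8% in pup 3, and Tmsb4x 11.3 and 28.6%.

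Differences between the pups were read as log2 ratios of pup 3 over pup 1, computed on TPM + 1. Over 2-fold apart were 3 of 10 members, against 67.6% of the 8120 genes whose counts averaged 10 or more (33.1% higher and 34.5% lower in pup 3). Of the 2346 of these at or above the mean level of Arpc3, 44.9% were over 2-fold apart (26% higher and 18.9% lower). Tmsb4x (1.64, 3.11-fold) and Arpc2 (1.46, 2.78-fold) were higher in pup 3 and Tpm3 (-2.27) was lower. Among 1096 genes averaging 100 TPM or more the share was 33.1% (20.7% higher and 12.4% lower), and 2 of the 8 members at that level, Tmsb4x and Arpc2, were over 2-fold apart. The other 7 members lay between -0.57 (Actg1) and 0.75 (Pfn1). Over all 10 the median was 0.38 and the median absolute ratio 0.56, beside 0.11 and 0.86 for the genes at or above the level of Arpc3. Higher in pup 3 were 6 of 10 members, beside 53.6% of those genes.

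Under TPM scaling no member's counting interval held a ratio of 1, but with 1 library per pup these intervals are no test between the pups. For Tmsb4x the 95% counting interval of the log2 ratio ran from 1.61 to 1.66, for Tpm3 from -2.39 to -2.24, and for Tmsb10 from 0.16 to 0.32 (exact conditional binomial, without a pseudocount). The interval of Arpc3, the least counted member, ran from -0.50 to -0.25. When libraries were scaled by spike-in totals instead, the log2 ratio of Arpc3 itself was -0.05. The labels name no molecular identifiers, so copies made by PCR may be counted more than once and these intervals cover counting error only. Spike-in RNAs show technical spread alone, without the difference between animals. Of 20 ERCC spike-ins with mean levels between those of Arpc3 and Actb, 4 were over 2-fold apart, and the log2 ratios of all 20 ran from -6.47 to 4.75. All 4 had means under 100 TPM. The 12 spike-ins at 100 TPM or more lay between -0.94 and 0.44, with a median of -0.22. Of the 103 genes averaging 1000 TPM or more, as Tmsb4x and Actb did, 14.6% were over 2-fold apart, 5.83% higher and 8.74% lower in pup 3.

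**Figure D3:**
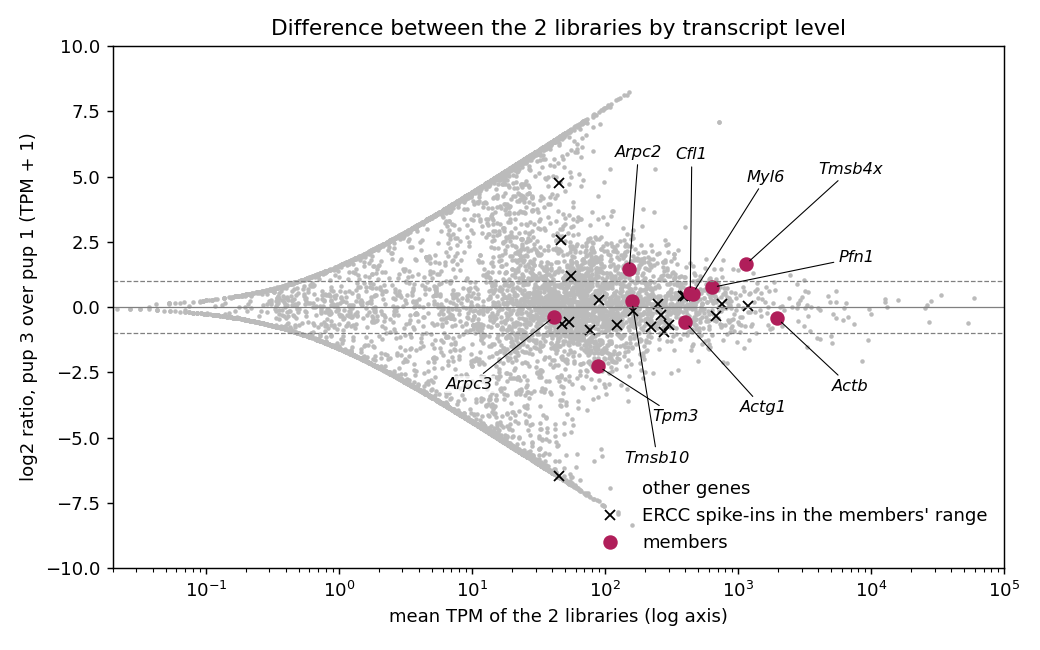
Log2 ratio of pup 3 over pup 1 on TPM + 1 (vertical axis) against the mean TPM of the 2 libraries (horizontal axis, log scale) for 8120 genes (grey), 20 spike-ins (crosses) and the 10 members (filled circles), with dashed lines at 2-fold. Tmsb4x and Arpc2 lie above the upper line and Tpm3 below the lower one, and grey points spread widely at lower levels.

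Markers of other cell types also differed between the libraries, not all of a list in 1 direction. As background for these counts, 49.3% of the 8120 genes whose counts averaged 10 or more were higher in pup 3. The summed level of 7 macrophage markers was 692 TPM in pup 1 against 1223 in pup 3. Higher in pup 3 were 6 of the 7, and C1qb was lower. At 1 TPM or more in both were 4 of 7. C1qc, Cd68 and Adgre1 were at 0 in pup 1 and at 196, 81.3 and 7.36 TPM in pup 3. The 5 megakaryocyte and platelet markers summed to 677 and 1157 TPM (3 of 5 in both), with 4 higher and Gp9 lower in pup 3. Among the 4 was Gp1bb, at 0 in pup 1 and only 0.742 TPM in pup 3. The 7 lymphocyte markers summed to 138 and 353 TPM (4 of 7 in both), with 5 higher in pup 3 and Cd3e and Trac at 0 in both.

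Directions were more evenly mixed in the blood lists of neutrophils and red cells. The 7 neutrophil markers, all at 1 TPM or more in both, summed to 6322 and 9091 TPM. S100a8 (2061 and 4236 TPM), S100a9 (1272 and 2464 TPM) and Camp were higher in pup 3, whereas Ngp, Elane, Mpo and Ltf were lower, and the median log2 ratio was -0.05. The 8 erythroid markers summed to 133285 and 163586 TPM (7 of 8 in both), with the 4 globins higher in pup 3. Alas2 and Slc4a1 were lower there, and Epb42 was at 0.

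Of the remaining lists, the 7 stellate and smooth muscle markers, Acta2 among them, summed to 370 and 174 TPM (3 of 7 in both). The 5 with counts were all lower in pup 3, and Tagln and Myh11 were at 0 in both. The 7 endothelial markers summed to 335 and 170 TPM (4 of 7 in both, Kdr at 0 in pup 1 and Clec4g in pup 3). Pecam1, Cdh5 and Kdr were higher in pup 3, and the median log2 ratio was -0.11. The 8 hepatocyte markers summed to 165452 and 131614 TPM, with Trf (64244 and 42243 TPM) and Ahsg (32190 and 21893 TPM) among 5 that were lower, and Alb, Afp and Ttr higher in pup 3. The part of these cell types in the levels of the members was not tested.

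By distance on log2(TPM + 1) over the 2 libraries, the protein-coding genes nearest to Actb were Rps18 (0.09), Rpl41 (0.25) and Mat1a (0.32). Nearest to Tmsb4x were Hist1h2ap (0.08), Arg1 (0.10) and Atp5b (0.26). A pattern over 2 libraries is only a pair of levels.

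In 6 members 1 annotated transcript carried the gene. Cfl1-201 and Myl6-201 were the only transcripts listed for their genes. Actb-201 held 99.8 ± 0.163% of its gene's TPM, Pfn1-201 99.8 ± 0.0495%, Tmsb10-203 99.83% in each library and Tmsb4x-201 100% and 96.59%. The remainder of Tmsb4x in pup 3 was nearly all Tmsb4x-203 (3.4%, 1009 expected counts against 0 in pup 1), which has 18 additional coding bases and another coding start.

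The other 4 members were divided over several transcripts. The split between transcripts that share most of their bases is an estimate, from 1 library per pup. Actg1-202 held 44.3% of Actg1 in pup 1 and 84.6% in pup 3, and Actg1-204 46.6 and 15.4%. These 2 have the same coding sequence, and Actg1-204 lacks 125 noncoding bases of Actg1-202, whose first exon it does not share. Actg1-209, a transcript with a retained intron, held 8.9% in pup 1 (1260 expected counts) and none in pup 3. For Arpc2 the leading transcript by this estimate differed between the libraries. Arpc2-201 held 61.1% in pup 1 and 15.98% in pup 3, and Arpc2-203 38.88 and 84.02%, again with the same coding sequence and 207 and 242 noncoding bases of their own. In TPM, Arpc2-201 was at 49.2 and 35.7 and Arpc2-203 at 31.3 and 188. By this split the higher Arpc2 level of pup 3 lay in Arpc2-203, but the 2 transcripts share 1197 bases. The deposited credibility bounds, which come with no stated level, were for Arpc2-203 26.2 to 34.6 TPM in pup 1 and 178 to 190 TPM in pup 3. Arpc3-202 held 93.9 and 74.3%, and Arpc3-203, with another first exon and coding start, 6.09 and 25.0%. The bounds of Arpc3-203 ran from 0.00789 to 6.60 TPM in pup 1 and from 2.80 to 13.6 TPM in pup 3. Each pair of bounds comes from 1 library, so neither overlap nor separation of them is a test between the pups.

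**Figure D4:**
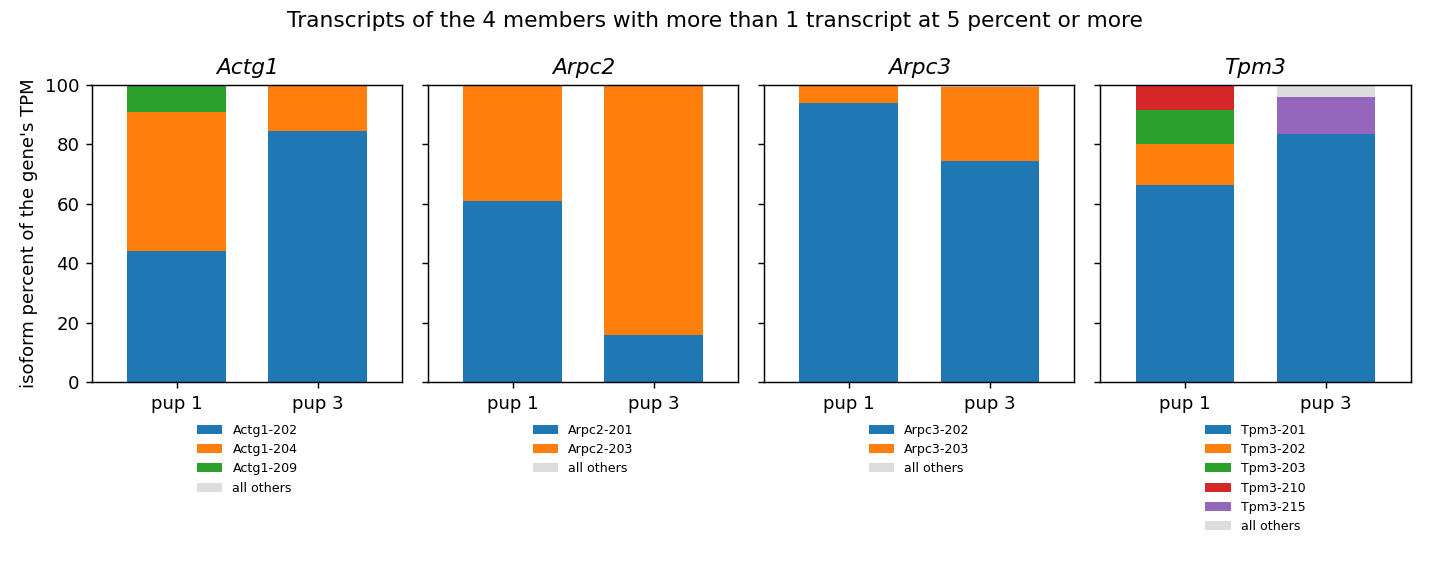
Isoform percent, each transcript's share of its gene's TPM (vertical axis), in pup 1 and pup 3 for Actg1, Arpc2, Arpc3 and Tpm3, with transcripts at 5% or more in either library in colour and all others in grey. For Arpc2 the largest estimated share passes from Arpc2-201 to Arpc2-203 between the libraries. Tpm3-202, Tpm3-203 and Tpm3-210 have bars in pup 1 only.

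Tpm3 had 17 listed transcripts, of which 4 had counts in pup 1 and 3 in pup 3. They differ in a pair of alternative internal coding exons of 76 bases each, at chr3:90088401-90088476 (upstream exon) and chr3:90089048-90089123 (downstream exon) on the plus strand of GRCm38. Both are printed because transcripts with only the downstream exon had counts in pup 1 alone, with the bases that differ at the same position in capitals:
Tpm3 upstream exon: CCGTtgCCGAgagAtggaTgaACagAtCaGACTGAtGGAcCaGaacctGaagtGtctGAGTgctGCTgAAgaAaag
Tpm3 downstream exon: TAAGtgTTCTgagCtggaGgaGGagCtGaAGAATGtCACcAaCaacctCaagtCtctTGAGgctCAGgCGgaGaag

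They differed at 37 of 76 positions, a 51.3% identity. Tpm3-201, which holds the upstream exon, was at 98.4 TPM in pup 1 against 24.9 in pup 3, and was the main transcript in both (66.5 and 83.6%). Transcripts with only the downstream exon summed to 37.3 TPM (2466 expected counts) in pup 1 and to 0 in pup 3. These were Tpm3-202 (20.1 TPM) and Tpm3-203 (17.2 TPM), the latter also with another coding end than Tpm3-201. In pup 3 the intron-retaining Tpm3-207, which spans both exons, had 79.7 expected counts and none in pup 1. Pup 1 also had Tpm3-210 at 12.3 TPM, and pup 3 had the intron-retaining Tpm3-215 at 3.68 TPM from 43.5 expected counts. The 2 protein-coding transcripts that begin further upstream than Tpm3-201 had no counts in either library.

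Near-identical copies elsewhere in the genome took few counts. They were defined as annotated genes with a transcript that aligned to a member over at least 90% of its own length at 90% identity or more. With counts above 0 there were 5 such copies of Myl6, 3 of Actg1, 3 of Tmsb10, 1 of Cfl1 and 1 of Tpm3. Together they had at most 1.62% of their member's expected counts (Tpm3 in pup 1). The largest were the processed pseudogenes Gm12715 for Actg1 (110 and 116 expected counts) and Gm5526 for Myl6 (84.4 and 50.8), and Tpm3-rs7 for Tpm3 (185 and 18.6). Gm8034, a 132-base copy of Tmsb10, had 18 and 17 expected counts, but 13.1 and 18.0 TPM after correction for its short length. In TPM the 3 copies of Tmsb10 summed to 14.4 in pup 1 and 19.5 in pup 3, beside 146 and 172 for Tmsb10, a larger part than in counts. Of annotated genes on the opposite strand, Snx32 overlaps Cfl1 and had no counts.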

How the data were processed

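Per the deposited notes, the authors' values refer to mm10 with GENCODE M4 genes and come from a transcriptome alignment of each library. Aligner, quantification program and strand setting: not given in the sources used here. The authors deposited expected counts (estimated reads, not always whole), TPM over all listed features, posterior mean TPM with bounds (treated as a score) and isoform percent. Pup 1 had 56959836 expected counts in all and pup 3 had 35973980, with 3.76 and 3.28% in spike-ins.

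Spike-ins were removed and TPM rescaled. Gene names, positions and transcript sequences are those of GENCODE M21 (GRCm38, also called mm10), matched by identifier without version for 98.0% of genes. Copies were searched with BLAST 2.17.0. Members and lists were chosen with earlier results of these data known. Named by rule were all members, their transcripts at 5% or more, up to 4 leading genes of each list (1 list is not reported here), 3 nearest genes to Actb and Tmsb4x, and up to 3 copies per member. Other names, the ratios within a library, the Tpm3 exon classes and the backgrounds by level were chosen after values were seen. Ratio calculations were tested on simulated counts. Alternative scalings took edgeR 4.0.16 and DESeq2 1.42.0 factors from rounded expected counts (R 4.3.3). Computation used pandas 2.3.3 and scipy 1.17.1 under Python 3.11.15.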

Additional observations from a re-analysis of the deposited data

How the results depend on the processing

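Scaling moved every ratio between the pups without turning any of the 10 directions. TMM factors moved the members by -0.13 (log2, median), DESeq2 factors by -0.12 and spike-in totals by 0.31, and the median of all genes by -0.11, -0.11 and 0.27. Over 2-fold apart were 3 members under each scaling and pseudocount except spike-in totals, where Pfn1 (1.07) made it 4. With spike-in totals the ratios of Arpc3 (-0.05) and Actb (-0.12) were near 0. Posterior mean TPM, protein-coding totals, spike-ins kept and added copies left all 10 levels within 1 SD. Scaling by total counts without length correction moved 6 levels by more than 1 SD. The SD of 2 libraries is a wide measure where the pups differ, as for Tpm3 (88.9 ± 83.6 TPM), so staying within it says little for such members. Posterior percents moved 2 of 18 transcript shares, Tmsb10-203 (99.5%) and Pfn1-201 (99.6%), by more than their SD, which was 0 for Tmsb10-203 and 0.0495 for Pfn1-201. Each library alone gave a summed share of 0.493 or 0.604%. At 100 TPM in both libraries, 7 of 10 members were counted. No paired analysis was possible because the labels give 1 group. Depth allowed counting of all members, with at least 779 expected counts each, and 2 libraries limit every spread. Read counts from 13 pg of RNA do not give the number of molecules captured. Of 20 spike-ins in the members' range 16 were within 2-fold and 4 were not, among them ERCC-00025 with 7073 counts in pup 1 and 1 in pup 3.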
